A study of Mus musculus with 31 samples.

Results

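Complement components and receptors were followed as 9 named genes, C1qa, C1qb, C1qc, C3, C4b, C3ar1, C5ar1, Cfb and Serping1, in bulk hippocampi and in primary microglia of mice. Each was found by gene name in the microglial count table and by the same Ensembl identifier in the hippocampal one, so that all 9 were present among 48795 genes in hippocampi and 54532 genes in microglia. The hippocampi came from 7 non-transgenic (Ntg) mice, 3 females and 4 males, and 6 P301S transgenic mice, 3 females and 3 males, all 8 to 9 months old. P301S mice carry human tau with the P301S mutation under a mouse prion promoter and came from The Jackson Laboratory; the study crossed them with Cgas-/- mice, and the Cgas genotype of the hippocampi sequenced is not given in the sources used here. The microglia were wild-type (WT, Cgas+/+) or Cgas KO (Cgas-/-) cells that received vehicle, tau fibrils (0N4R, 2 µg/ml) or herring testis DNA (HT-DNA, 1 µg/ml), with 3 libraries in each of 6 groups, and RNA was taken 6 h after stimulation. These cells were shaken off mixed glial cultures of cortices of pups at postnatal days 1 to 3, grown with granulocyte-macrophage colony-stimulating factor. The study describes the microglial libraries as independent samples without saying whether they came from separate litters, so p-values measure the spread between these libraries.

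Complement is a cascade of plasma and tissue proteins that tags targets for uptake by phagocytes. C1q, built from the A, B and C chains, starts the classical pathway, which cleaves C4 and then C3, the central component; factor B forms the protease of the alternative pathway, and C1 inhibitor blocks the first proteases. In the brain microglia are the main source of C1q, C3 and C4 are also made by reactive astrocytes, and C1q and C3 are known for marking synapses for removal by microglia.

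In GRCm38 coordinates of the GENCODE annotation, the 3 C1q genes lie within 18.7 kb at chr4:136880129-136898803, in the order C1qb, C1qc, C1qa along the chromosome, all on the minus strand. C4b (chr17:34728380-34743882) and Cfb (chr17:34856374-34862518) lie within 134.1 kb of each other, on the minus strand of the major histocompatibility region. C3 is at chr17:57203970-57228136, C3ar1 at chr6:122847138-122856161, C5ar1 at chr7:16246743-16259540 and Serping1 at chr2:84765387-84775444. All 9 are protein-coding. Of the Cfb gene, 6107 of 6145 bases are shared on the same strand with the read-through gene model Gm20547, which had 0 counts in every library of both tables; how reads falling in both were counted is not given in the sources used here. C4b shared 35.18% of its 50-base words with its neighbour C4a, and 38.14% in the last 500 bases, which 3′-end reads would cover, so the split of reads between C4b and C4a is uncertain.

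Promoter sequence of RefSeq (GRCm38.p6) was found for 5 of the 9 members (C1qb, C1qc, C3, C3ar1 and C5ar1). Sequences are shown for the C1q chains, C3 and C3ar1 because these genes moved together in hippocampi and apart in stimulated microglia; each is written 5′ to 3′ on the minus strand and ends at the RefSeq or GENCODE gene start, whichever lies further upstream. Capitals mark the only match to the 4 motifs searched on both strands, an interferon-stimulated response element core (GAAA, 2 bases of any kind, GAAA), a gamma-activated site (TTCNNNGAA), an NF-kB site (GGGA, 2 bases of any kind, TTCC) and a PU.1 site (GAGGAAGT). The windows are chr4:136886201-136886450 for C1qb, chr4:136893066-136893164 for C1qc, chr17:57228137-57228386 for C3 and chr6:122856162-122856407 for C3ar1.
C1qb: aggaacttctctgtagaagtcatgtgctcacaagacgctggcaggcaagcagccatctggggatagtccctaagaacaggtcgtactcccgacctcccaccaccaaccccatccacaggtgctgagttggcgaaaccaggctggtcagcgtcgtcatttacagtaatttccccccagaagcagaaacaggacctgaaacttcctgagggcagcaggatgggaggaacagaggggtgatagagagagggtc
C1qc: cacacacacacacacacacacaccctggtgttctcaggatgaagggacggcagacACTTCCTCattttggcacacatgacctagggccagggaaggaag
C3: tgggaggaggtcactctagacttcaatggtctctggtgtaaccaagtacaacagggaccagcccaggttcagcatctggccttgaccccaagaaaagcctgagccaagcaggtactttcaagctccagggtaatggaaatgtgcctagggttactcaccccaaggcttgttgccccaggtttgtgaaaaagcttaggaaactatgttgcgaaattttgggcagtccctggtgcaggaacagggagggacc
C3ar1: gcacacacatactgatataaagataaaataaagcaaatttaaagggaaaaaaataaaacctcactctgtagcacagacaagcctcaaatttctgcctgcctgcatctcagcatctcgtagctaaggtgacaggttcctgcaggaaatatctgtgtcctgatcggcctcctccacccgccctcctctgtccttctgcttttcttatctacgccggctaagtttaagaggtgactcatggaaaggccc
The match in C1qc was the PU.1 motif, read on the other strand as ACTTCCTC, 195 to 188 bases before the RefSeq start. Over 32851 mouse promoters of 250 bases, 2.44% held the PU.1 motif, 2.98% the interferon-stimulated response element core, 7.02% the gamma-activated site and 1.21% the NF-kB motif. A match is a string of letters and not a measured site.

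Total counts ranged from 25953296 to 35779977 in hippocampi and from 17037459 to 25174764 in microglia. Mapt, the tau gene, counted together with any transgene reads that aligned to it, was higher in the 6 P301S mice (858 to 1125 CPM, which are counts scaled to a common library size) than in the 7 Ntg mice (519 to 642), so every hippocampus matched its transgene label. No check of the sex labels is given here. Cgas had 71 to 180 counts in Cgas-/- libraries and 434 to 812 in Cgas+/+ libraries. The 10 microglial markers summed to between 4334 and 5563 CPM in the cultures, where Siglech had 0 counts in the vehicle libraries of both genotypes, against at most 557 CPM for the 2 markers of oligodendrocyte precursors, 277 for endothelium, 215 for oligodendrocytes and 13.7 for astrocytes. P301S mouse 43 had the lowest level of the 6 P301S mice for each of the 8 members tested in hippocampi, with mouse 63 close to it for C1qa and C3ar1.

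The first comparison asked which complement genes differ between hippocampi with and without tau pathology. Of the 9 members, 8 passed the filter on low counts and 6 of these were higher in P301S than in Ntg hippocampi at an adjusted p under 0.05 by edgeR's quasi-likelihood test with Benjamini-Hochberg adjustment over all genes (C1qa, C1qb, C1qc, C3, C4b and C3ar1), beside 1.39% of all 16453 genes tested, and none was lower, beside 0.122%. With a minimum log2 fold change of 0.5 in addition, the same 6 were called, beside 1.36% of all genes. The median log2 fold change was 1.89 over the 8 members and 0.0013 over all genes tested. No member was lower at an unadjusted p under 0.05 or by DESeq2, a second count-based test. C5ar1 and Serping1 had higher means in P301S mice without passing, and Cfb was not tested. In bulk tissue, more cells of a type and more RNA per cell cannot be told apart.

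**Figure D1:**
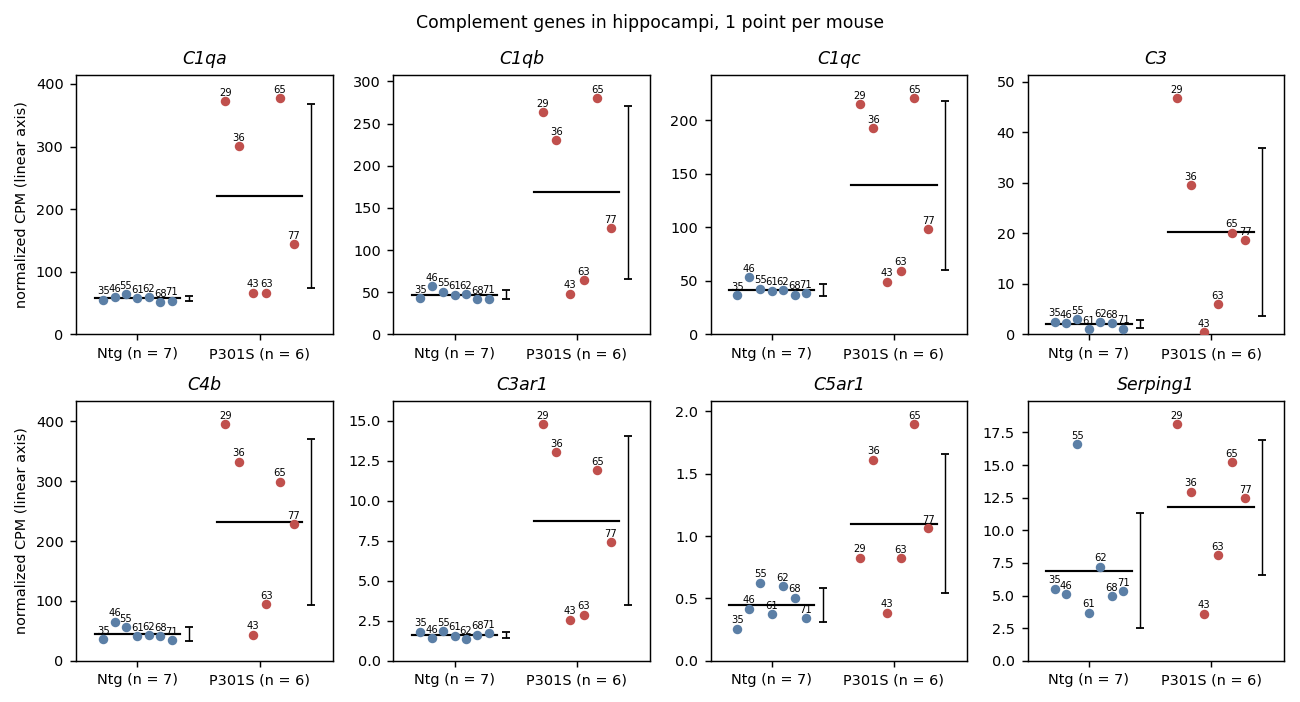
Normalized CPM (linear axis) of 8 complement genes in hippocampi, 1 point per mouse with its number, for 7 Ntg (blue) and 6 P301S mice (red); lines are group means and bars are SD. C1qa in P301S mice 29, 36 and 65 sits at 300.7 CPM or higher, and in mice 43 and 63 at 66.4 and 67.0 CPM, next to the highest Ntg mouse at 64.1 CPM.

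The recognition chains of C1q rose together. C1qa, the A chain, had between 51.9 and 64.1 CPM in Ntg mice (median 57.9) and between 66.4 and 377 CPM in P301S mice (median 222). The groups did not overlap, but P301S mice 43 (66.4) and 63 (67.0) lay just above the highest Ntg mouse, whereas mice 29, 36 and 65 had 372, 300.7 and 377 CPM. The log2 fold change of C1qa was 1.94 ± 0.37 (SE), or 3.84-fold, with an adjusted p of 0.0303. C1qb, the B chain, had 41.7 to 57.0 CPM in Ntg mice (median 46.9) and 48.1 to 280 CPM in P301S mice (median 178). Only P301S mouse 43, at 48.1 CPM, fell within the Ntg range. For C1qb it was 1.84 ± 0.35 (adjusted p = 0.0303). C1qc, the C chain, had 36.9 to 53.6 CPM in Ntg mice (median 40.8) and 49.2 to 221 CPM in P301S mice (median 145), with mouse 43 again the only one inside the Ntg range. Its log2 fold change was 1.74 ± 0.32 (adjusted p = 0.0299). The 3 chains kept close to each other from mouse to mouse: C1qa spanned 7.26-fold over the 13 mice, whereas the log2 ratio of C1qb to C1qa had an SD of 0.14 and that of C1qc to C1qa an SD of 0.19.

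C4b and C3, which are cleaved in turn after C1q binds, had the higher fold changes among the components. C4b had between 34.2 and 65.5 CPM in Ntg mice (median 40.7) and between 43.3 and 395 CPM in P301S mice (median 264). Mouse 43 was inside the Ntg range and the other 5 P301S mice were above it, from 94.9 CPM in mouse 63 upwards. C4b rose by 2.36 ± 0.40, or 5.14-fold (adjusted p = 0.0206). C4a, with which C4b shares sequence, held 29 to 99 counts in Ntg mice and 12 to 127 in P301S mice, against 902 or more for C4b in every mouse. C3 had between 1.06 and 3.04 CPM in Ntg mice (median 2.28) and between 0.42 and 46.8 CPM in P301S mice (median 19.4). P301S mouse 43, with 12 counts of C3, was below all Ntg mice, which had 30 to 92 counts, and the other 5 P301S mice were above them, with 182 to 1416 counts. The log2 fold change of C3 was 3.26 ± 0.65, the largest and least precise among the members (adjusted p = 0.0303).

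Both receptors for the cleavage fragments of C3 and C5 rested on fewer reads in hippocampi. C3ar1, the receptor of the C3a fragment, had 1.33 to 1.85 CPM in Ntg mice (38 to 56 counts, median 1.63 CPM) and 2.56 to 14.8 CPM in P301S mice (73 to 447 counts, median 9.66 CPM). Groups did not overlap, and mice 43 (2.56) and 63 (2.87) were again the lowest of the P301S group. The log2 fold change of C3ar1 was 2.44 ± 0.37, or 5.43-fold, and its adjusted p of 0.0151 was the lowest among the members. C5ar1, the receptor of C5a, had 7 to 19 counts in Ntg mice (0.26 to 0.63 CPM, median 0.42) and 11 to 50 counts in P301S mice (0.39 to 1.90 CPM, median 0.94). Of the P301S mice, 5 were above all Ntg mice and mouse 43, with 11 counts, was inside their range. For C5ar1 the estimate was 1.29 ± 0.33 on the log2 scale, with an adjusted p of 0.0636, just above the threshold.

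The inhibitor and the alternative pathway protease did not pass. Serping1, the gene of C1 inhibitor, had 3.67 to 16.6 CPM in Ntg mice (median 5.31) and 3.61 to 18.1 CPM in P301S mice (median 12.7). The ranges overlapped almost fully: Ntg mouse 55 had 16.6 CPM and the next Ntg mouse 7.22 CPM, and P301S mouse 43 was the lowest of all 13. The log2 fold change was 0.76 ± 0.37 (adjusted p = 0.338), and without Ntg mouse 55 it was 1.15 ± 0.30 (adjusted p = 0.0695). In Ntg mouse 55 the summed level of 5 fibroblast markers was 104 CPM and that of 4 choroid plexus markers 1977 CPM, both within the range of the other Ntg mice, whereas its sums of 3 border macrophage markers (6.71 CPM, against 1.22 to 4.77) and of 5 oligodendrocyte markers (7275 CPM, against 3653 to 6416) were the highest of the Ntg group. Their part in its Serping1 level was not tested. Cfb, the gene of factor B, had at most 2 counts in any hippocampus and 4 of the 13 mice had any, so that a difference was not detectable at this depth.

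By mouse, all 8 measurable members were above every Ntg mouse in P301S mouse 29. In mice 36, 63, 65 and 77 it was 7 of 8, all but Serping1, and in mouse 43 it was 2 of 8, C1qa and C3ar1. The share of all genes above every Ntg mouse was not counted, so these counts describe the members only. Relative to the Ntg median, C3 was 20.5-fold in mouse 29, 12.95-fold in mouse 36, 8.84-fold in mouse 65, 8.17-fold in mouse 77, 2.63-fold in mouse 63 and 0.18-fold in mouse 43. Mapt in mouse 43 was 970 CPM, within the range of the other P301S mice. Without mouse 43 the log2 fold changes were 2.13 for C1qa, 2.03 for C1qb, 1.92 for C1qc, 3.52 for C3, 2.58 for C4b, 2.63 for C3ar1, 1.46 for C5ar1 and 0.95 for Serping1, and C5ar1 then passed (adjusted p = 0.00846), whereas Serping1 did not (0.123). Leaving out other mice moved the size of the changes little and their calls a lot: the count of members called was 1 (C3ar1) without any one of Ntg mice 35, 61, 62, 68 or 71 or P301S mice 29, 36 or 65, 2 without Ntg mouse 46, 6 without Ntg mouse 55 or P301S mouse 77, and 7 without P301S mouse 43 or 63. Calls over all genes moved in the same fits, from 229 higher and 20 lower with all mice. They were 14 to 24 higher and 0 to 2 lower where 1 member was called, and 23 and 0 without Ntg mouse 46. Higher and lower calls were 200 and 16 without Ntg mouse 55 and 329 and 133 without P301S mouse 77. They were 751 and 195 without P301S mouse 43 and 582 and 109 without P301S mouse 63. Over these 13 fits the log2 fold change of C1qa stayed between 1.71 and 2.13 while its adjusted p ran from 0.00216 to 0.0859. C3ar1 was the member called in all 13, with an adjusted p of at most 0.0482.

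The summed markers of microglia, astrocytes, oligodendrocytes and T cells each had a higher median in P301S than in Ntg mice. Oligodendrocyte precursors were close (71.8 against 71.5 CPM). Median sums were lower in P301S mice for choroid plexus (591 against 1977 CPM), fibroblasts (39.7 against 95.8) and endothelium (94.9 against 105). So were those of neurons, border macrophages, neutrophils and red blood cells. For each of these lists the groups overlapped. P301S mouse 43 had the lowest choroid plexus sum of all 13 mice (87.7 CPM). Its fibroblast sum was the highest of the P301S mice (111 CPM). Of the 10 microglial markers, 2 were higher in P301S hippocampi and none was lower, with a median log2 fold change of 0.61, and of the 7 homeostatic ones none passed (median 0.17). The summed level of the 10 markers was 893 to 896 CPM in P301S mice 29, 36 and 65, 597 in mouse 77, 419 in mouse 63 and 374 in mouse 43, against 370 to 457 in Ntg mice. The 6 astrocyte markers summed to 3628 to 4411 CPM in Ntg mice and 3703 to 7389 CPM in P301S mice, in which 1 of the 6 was higher, and none of their defining genes or of the microglial ones was at 0. The 5 oligodendrocyte markers summed to 3653 to 7275 CPM in Ntg mice (median 4559) and 4557 to 8692 CPM in P301S mice (median 6314), and none of them was called (log2 fold changes 0.38 to 0.50). The 4 T cell markers summed to at most 1.09 CPM in Ntg mice and to 5.88, 2.23 and 6.29 CPM in P301S mice 29, 36 and 65, the mice highest for C1qa, with 0.59 to 1.32 CPM in the other 3. No gene of the T cell list or of the other marker lists was called. The part of these cell types and of cell number in the results was not tested. Taken as the log2 level minus the mean log2 level of the 10 markers, C1qa was 1.04 higher in P301S than in Ntg mice and above all Ntg mice in 6 of 6 (exact permutation test, two-sided, p = 0.000583, the smallest that 7 against 6 allows). With 8 members tested and p unadjusted, the same exact permutation test gave that p for C1qb (0.998 higher), C1qc (0.96) and C3ar1 (1.55), each above all Ntg mice in 6 of 6 mice. The exact permutation p was 0.00233 for C4b (1.501 higher, 5 of 6 mice above), 0.0385 for C3 (1.85, 5 above and mouse 43 below all Ntg mice), 0.0478 for C5ar1 (0.53, 4 of 6) and 0.549 for Serping1 (0.22, 0 of 6). Without mouse 43 these differences were 1.18 for C1qa, 1.16 for C1qb, 1.07 for C1qc, 1.70 for C3ar1, 1.78 for C4b and 2.60 for C3 (exact permutation p = 0.00126 for each), 0.64 for C5ar1 (p = 0.0316) and 0.38 for Serping1 (p = 0.292). That exact permutation p of 0.00126 is the smallest that 7 against 5 allows. For C3 and C4b, mouse 43 was the only P301S mouse not above all Ntg mice. Leaving it out therefore fixed their p in advance, and that p adds no support. With each of the 13 mice left out in turn, an alternative added after seeing the data, C1qa, C1qb, C1qc, C3ar1 and C4b had an exact permutation p of at most 0.00649. C3 missed the threshold of 0.05 without any one of Ntg mice 46, 61 or 71 or P301S mice 29, 36, 63, 65 or 77 (exact permutation p up to 0.0846), and C5ar1 without any one of Ntg mice 35, 46, 61 or 71 or P301S mice 36, 63, 65 or 77 (up to 0.0947). The mean of the markers was itself 0.55 higher on the log2 scale in P301S mice (exact permutation test, p = 0.0268). With the mean of the 7 homeostatic markers as a covariate in the edgeR fit, C1qb, C1qc, C4b and C3ar1 kept their calls, while C1qa (log2 fold change 0.86, adjusted p = 0.0952) and C3 (1.61, 0.327) did not. Over all 16453 genes that fit called 21 higher and 0 lower, against 229 and 20 without the covariate.

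**Figure D2:**
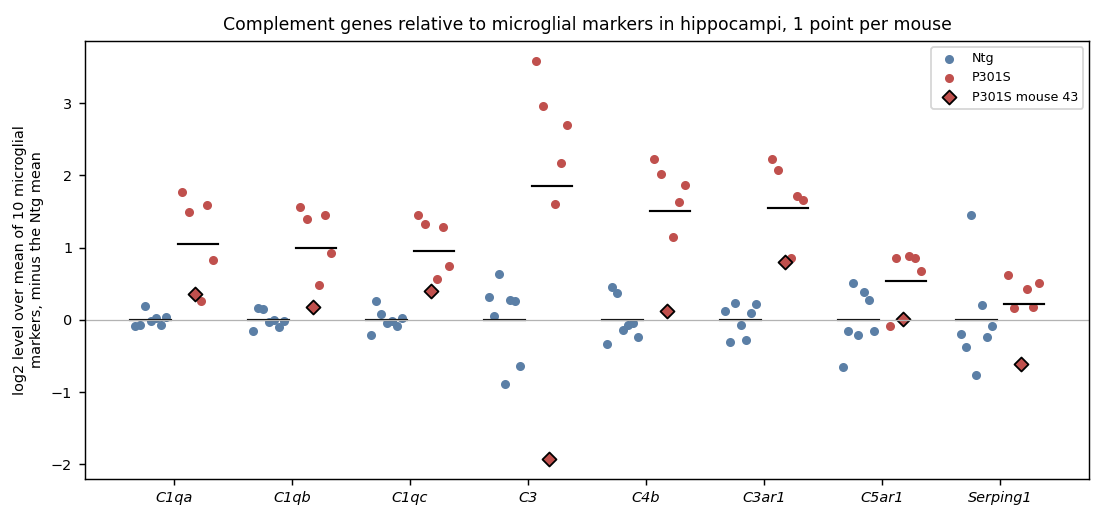
Log2 normalized CPM of each complement gene minus the mean log2 normalized CPM of 10 microglial markers, set to 0 at the Ntg mean, 1 point per hippocampus (blue, 7 Ntg; red, 6 P301S; diamond, P301S mouse 43); lines are group means. C1qa, C1qb, C1qc and C3ar1 are above all Ntg mice in all 6 P301S mice, while C3 in mouse 43 is below all Ntg mice.

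The response to P301S was also compared between the sexes. The interaction of sex with genotype was called for 0 of the 8 members and 0% of all genes tested by edgeR's quasi-likelihood test; 0 members and 3897 of 16453 genes had an unadjusted p under 0.05. Its estimate for C1qa was -0.43 with a 95% interval from -1.955 to 1.09, so that differences of that size were not detectable with 3 P301S mice of each sex.

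Of 49 other complement genes, all were in both tables and 33 passed the filter in hippocampi, where 2 were higher, beside 1.39% of all genes, none was lower and the median log2 fold change was -0.03. Both were integrin chains that form complement receptors for cleaved C3. Itgax, the alpha chain of complement receptor 4, had 0.12 to 0.66 CPM in Ntg mice (median 0.35) and 0.77 to 58.6 CPM in P301S mice (median 22.6). Its groups did not overlap, and its log2 fold change was 6.12 ± 0.87 (adjusted p = 0.0102). Itgb2, the beta chain shared by complement receptors 3 and 4, had 4.48 to 7.73 CPM in Ntg mice (median 5.78) and 7.15 to 33.3 CPM in P301S mice (median 22.7), with a log2 fold change of 1.80 ± 0.33 (adjusted p = 0.0303). Without mouse 43 they were 6.37 for Itgax (adjusted p = 0.000368) and 1.98 for Itgb2 (adjusted p = 0.00147). Over all genes that fit called 751 higher, against 229 with all mice. Fits without other mice called as few as 14 higher, and Itgax and Itgb2 are not given for those fits. Whether their calls held there is therefore not shown. The 5 classical, 4 lectin, 2 alternative, 2 terminal and 13 regulator or binding-protein genes tested held no call. At an unadjusted p under 0.05 by edgeR, 6 of the 33 were higher and 2 lower, beside 2612 of all 16453 genes in either direction. DESeq2 called 4 of the other complement genes higher and 0 lower, beside 781 and 194 of 20055 genes.

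Across the 13 hippocampi, genes whose log2 level was most like a member's were ranked by Pearson's r, as a description over mice that share a genotype split. For C1qa the closest were the microglial receptor gene Trem2 (r = 0.997), C1qb (0.993) and Ctsz (0.993). For C4b they were the astrocyte filament gene Gfap (0.988), Msn (0.986) and Cst7 (0.982). For C3 they were Tlr2 (0.978), Ctsc (0.977) and Ucp2 (0.974), and for C3ar1 they were Lag3 (0.985), Itgax (0.981) and Ggta1 (0.98). Serping1 followed Apod (0.959) and Cers2 (0.945) among others, and C5ar1 followed Rida (0.948), Plin2 (0.936) and Ifit3 (0.934).

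The second set of comparisons asked how the same genes respond to tau fibrils and to cytosolic DNA in microglia with and without cGAS, the enzyme that senses DNA in the cytosol. Here Serping1, with at most 10 counts in any library, was removed by the filter and the other 8 members were tested among 13675 genes. The comparisons of both stimuli with vehicle share their vehicle libraries within a genotype.

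**Figure D3:**
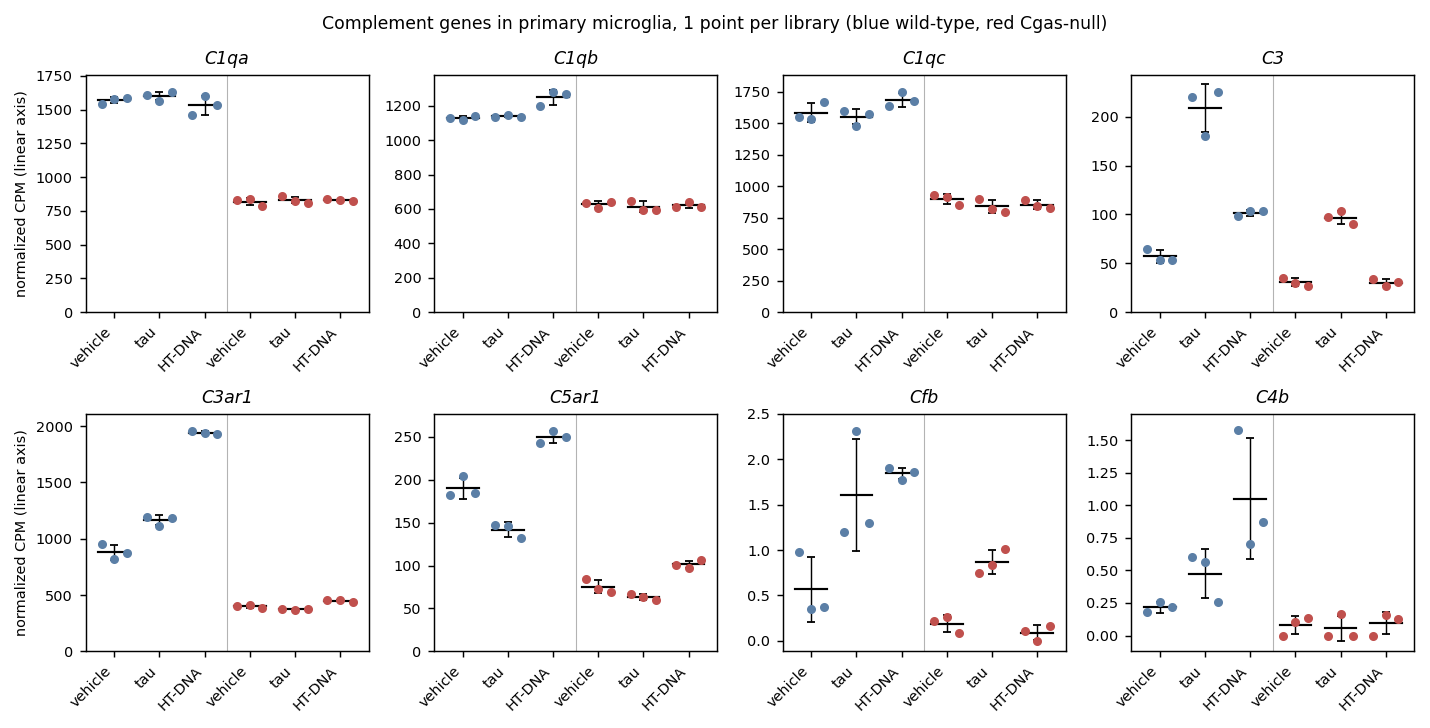
Normalized CPM (linear axis) of 8 complement genes in primary microglia, 1 point per library, 3 libraries per group, for Cgas+/+ (blue) and Cgas-/- cells (red) with vehicle, tau fibrils or HT-DNA; lines are group means and bars are SD. C3 is highest with tau and C3ar1 with HT-DNA in Cgas+/+ cells, and C1qa sits between 1459 and 1630 CPM in all Cgas+/+ and between 788 and 858 CPM in all Cgas-/- libraries.

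In Cgas+/+ cells tau fibrils raised C3, Cfb and C3ar1, lowered C5ar1 and left no call on the C1q chains or C4b. Thus 3 of 8 tested members were higher, beside 15.8% of all genes, and 1 was lower, beside 12.2%. With a minimum log2 fold change of 1 the calls were C3 and Cfb, 2 of 8 beside 3.41% of all genes. C3 had 64.96, 52.9 and 53.2 CPM with vehicle and 220, 181 and 225 CPM with tau. The groups were far apart, and the log2 fold change was 1.87 ± 0.09, or 3.65-fold (adjusted p = 1.33e-15). C3ar1 had 951, 819 and 871 CPM with vehicle and 1193, 1113 and 1184 CPM with tau, without overlap, a change of 0.40 ± 0.04 on the log2 scale (adjusted p = 1.93e-08). Cfb was counted 22, 8 and 7 times with vehicle and 22, 49 and 25 times with tau. One vehicle library thus held as many Cfb reads as the lowest tau library, and the log2 fold change was 1.49 ± 0.42 (adjusted p = 0.00768). That call was lost without vehicle library 2 (adjusted p = 0.0607) or tau library 2 (0.0892). C5ar1 had 182, 204 and 184 CPM with vehicle and 147, 146 and 132 CPM with tau. It fell in all 3 tau libraries, by 0.42 ± 0.06 on the log2 scale (adjusted p = 1.22e-06).

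For the C1q chains tau gave values close to those of vehicle. C1qa had 1569 ± 22.9 CPM with vehicle and 1601 ± 33.2 CPM with tau (SD, n = 3), and the 95% interval of its log2 fold change ran from -0.05 to 0.10. For C1qb the interval ran from -0.07 to 0.09 and for C1qc from -0.12 to 0.06. C4b was counted 4, 6 and 4 times with vehicle and 11, 12 and 5 times with tau. The estimate was 1.11 ± 0.66 on the log2 scale (adjusted p = 0.240), at counts too low to show such a difference.

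HT-DNA in Cgas+/+ cells raised 6 of the 8 tested members, beside 22.8% of all genes, and lowered none, beside 24.7%. With the minimum fold 3 of 8 were called, C3ar1, Cfb and C4b, beside 8.08%. C3ar1 rose furthest above its spread, to 1953, 1943 and 1930 CPM from the vehicle values above. Its log2 fold change was 1.14 ± 0.04 (adjusted p = 7.24e-18). C3 had 98.0, 103 and 103 CPM with HT-DNA, above all 3 vehicle libraries, and rose by 0.83 ± 0.09 on the log2 scale (adjusted p = 5.67e-09). C5ar1, which tau had lowered, had 242, 256 and 249 CPM with HT-DNA and rose by 0.39 ± 0.06 (adjusted p = 1.72e-06). Cfb was counted 35, 33 and 34 times, more than in any vehicle library (log2 fold change 1.68 ± 0.42, adjusted p = 0.00145). C4b was counted 29, 13 and 16 times, likewise above all vehicle libraries (2.24 ± 0.60, adjusted p = 0.00288). C1qb had 1199, 1279 and 1267 CPM with HT-DNA and 1131, 1119 and 1140 CPM with vehicle, a rise of 1.11-fold without overlap (0.14 ± 0.04 on the log2 scale, adjusted p = 0.00369), while C1qa (-0.04 ± 0.04, adjusted p = 0.470) and C1qc (0.09 ± 0.05, adjusted p = 0.123) were not called. C1qc was called with RLE size factors (adjusted p = 0.0354), when the other groups were left out of the fit (0.0428) and with DESeq2 (0.0269).

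Set against each other in Cgas+/+ cells, the stimuli differed for 4 of the 8 members: 1 was higher with tau, beside 17.1% of all genes, and 3 were lower, beside 17.8%; with the minimum fold it was C3, 1 of 8 beside 3.27%. C3 was 2.06-fold higher with tau than with HT-DNA (log2 fold change 1.04 ± 0.08, adjusted p = 6.00e-11). C5ar1 was lower with tau by a log2 fold change of -0.81 ± 0.06 (adjusted p = 6.96e-12), C3ar1 by -0.74 ± 0.04 (adjusted p = 1.61e-13) and C1qb by -0.13 ± 0.04 (adjusted p = 0.00979). The call on C1qb was lost without HT-DNA library 2 (adjusted p = 0.0620). For Cfb the difference was -0.19 ± 0.37 (adjusted p = 0.741), with a 95% interval from -0.92 to 0.54. C4b had an estimate of -1.13 ± 0.54 and was not called (adjusted p = 0.109), and was called when the other groups were left out (0.0485). C1qc, at -0.12 ± 0.05, was just above the threshold (adjusted p = 0.0526) and was called by DESeq2 (0.00754), with RLE size factors (0.0168), without the filter (0.0140) and when the other groups were left out (0.0180).

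In Cgas-/- cells tau fibrils again raised C3 and Cfb and lowered C5ar1, so that 2 of 8 members were higher, beside 11.2% of all genes, and 1 was lower, beside 5.48%; with the minimum fold C3 and Cfb were called, 2 of 8 beside 2.73%. C3 had 35.2, 29.5 and 27.0 CPM with vehicle and 97.0, 103 and 90.0 CPM with tau. Its log2 fold change of 1.67 ± 0.09 (adjusted p = 3.58e-14) stood beside 1.87 in Cgas+/+ cells, and the interaction of tau with genotype, -0.20 ± 0.13, was not called (adjusted p = 0.421, 95% interval -0.45 to 0.05). Cfb was counted 4, 5 and 2 times with vehicle and 17, 20 and 26 times with tau, without overlap (2.20 ± 0.55, adjusted p = 0.00410). C5ar1 fell from 84.1, 73.2 and 69.4 CPM to 66.6, 63.7 and 59.9 CPM, by 0.25 ± 0.06 on the log2 scale (adjusted p = 0.00449), and this call was lost without vehicle library 1 (adjusted p = 0.0805). C3ar1, which tau raised in Cgas+/+ cells, had 405, 412 and 387 CPM with vehicle and 376, 367 and 379 CPM with tau in Cgas-/- cells. The tau libraries were all below the vehicle libraries by a small margin, the change of -0.10 ± 0.04 was not called (adjusted p = 0.128), and the difference between the genotypes, an interaction of -0.50 ± 0.06, was (adjusted p = 2.71e-06). C3ar1 was the only member with a called interaction with tau, beside 3.31% of all genes lower and 3.61% higher.

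HT-DNA in Cgas-/- cells left 1 of 8 members called, C5ar1, beside 1.04% of all genes higher and 0.278% lower. With the minimum fold it was 0 of 8, beside 0.0219%, and 2 of 8 had an unadjusted p under 0.05. C5ar1 had 101, 97.5 and 106 CPM, above all vehicle libraries, and rose by 0.43 ± 0.06 on the log2 scale (adjusted p = 0.000335), close to the 0.39 of Cgas+/+ cells. The interaction for C5ar1 was 0.04 with a 95% interval from -0.13 to 0.20 (adjusted p = 0.784). C3ar1 had 452, 453 and 443 CPM, above the vehicle libraries without overlap, but its change of 0.16 ± 0.04 was not called (adjusted p = 0.0684), and was called with no filter on low counts (0.0178) and by DESeq2 (0.0128). C3 had 33.4, 26.7 and 30.3 CPM, within the vehicle range apart from 1 library just under it (-0.02 ± 0.10, adjusted p = 0.965). The interactions of HT-DNA with genotype were called for 4 of the 8 members, all with a lower estimate in Cgas-/- than in Cgas+/+ cells, beside 16.6% of all genes in that direction and 17.4% in the other. They were C3ar1 (-0.98 ± 0.06, adjusted p = 1.18e-12), C3 (-0.85 ± 0.13, adjusted p = 1.06e-05), Cfb (-2.69 ± 0.93, adjusted p = 0.0253) and C1qb (-0.16 ± 0.06, adjusted p = 0.0306). The call on C1qb was lost on leaving out any one of 7 libraries (Cgas+/+ vehicle 1 or 2, Cgas+/+ HT-DNA 2 or 3, Cgas-/- vehicle 1 or 3, Cgas-/- HT-DNA 3), with adjusted p up to 0.0872. That on Cfb, which rests on 6 reads in the 3 Cgas-/- HT-DNA libraries, was lost without Cgas-/- vehicle library 1 or 2 or HT-DNA library 2 (adjusted p up to 0.102).

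**Figure D4:**
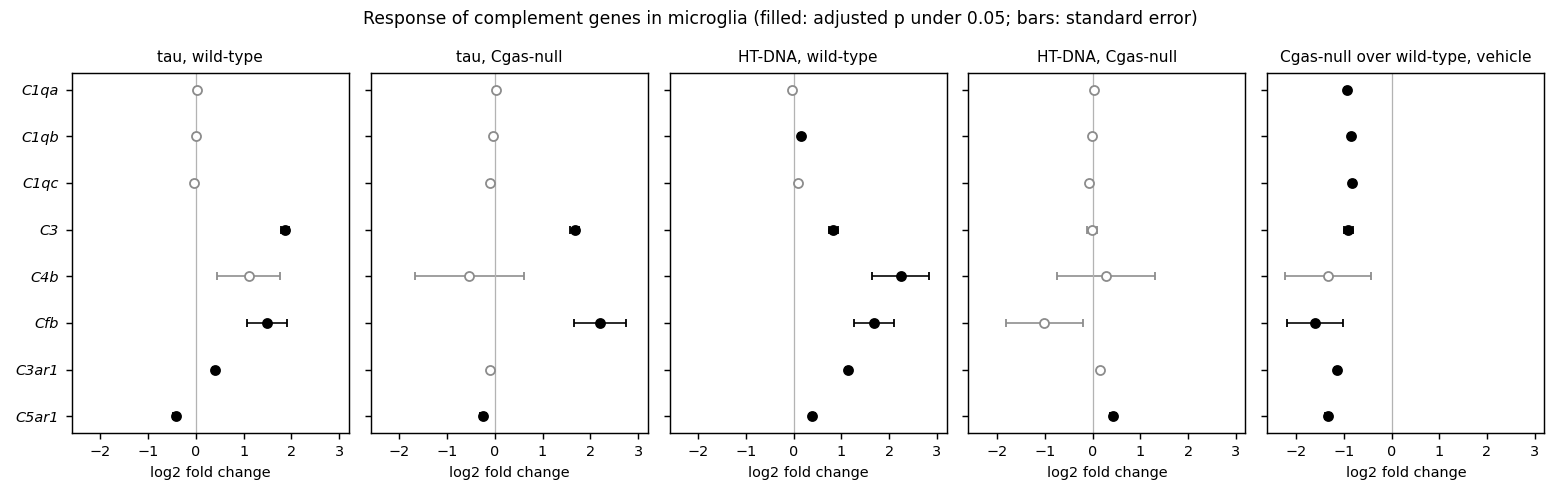
Log2 fold change with its standard error of 8 complement genes in microglia for tau or HT-DNA over vehicle in each genotype and for Cgas-/- (Cgas-null) over Cgas+/+ (wild-type) cells with vehicle, from edgeR fits of 3 libraries per group; filled points have an adjusted p under 0.05. C3 rises with tau in both genotypes (1.87 and 1.67) and with HT-DNA is called in Cgas+/+ cells (0.83) and not in Cgas-/- cells (-0.02).

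The genotypes differed with vehicle alone. In Cgas-/- cells 7 of the 8 members were lower than in Cgas+/+ cells, beside 27.3% of all genes, and none was higher, beside 24.7%; the median log2 fold change was -1.04 over the members and -0.01 over all genes. With the minimum fold 3 of 8 were called, C3ar1, C5ar1 and Cfb, beside 9.98% of all genes. C1qa had 828, 835 and 788 CPM in Cgas-/- cells and 1544, 1576 and 1588 CPM in Cgas+/+ cells, far apart for so narrow a spread. Its log2 fold change was -0.94 ± 0.04, or 1.92-fold lower (adjusted p = 1.35e-17). C1qb (-0.85 ± 0.04, adjusted p = 2.82e-16) and C1qc (-0.82 ± 0.05, adjusted p = 3.07e-14) were lower to a similar extent, without overlap. C3 was 1.88-fold lower (-0.91 ± 0.10, adjusted p = 7.08e-09), C3ar1 2.19-fold lower (-1.13 ± 0.04, adjusted p = 5.82e-18) and C5ar1 2.52-fold lower (-1.33 ± 0.06, adjusted p = 1.28e-16), each without overlap of the groups. Cfb was lower at 2 to 5 against 7 to 22 reads (-1.60 ± 0.59, adjusted p = 0.0237), a call that was lost without Cgas+/+ library 1 (-0.94, adjusted p = 0.258) or Cgas-/- library 3 (-1.22, adjusted p = 0.123). C4b was counted 0, 2 and 3 times in Cgas-/- and 4, 6 and 4 times in Cgas+/+ cells and was not called (adjusted p = 0.229).

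Markers of some other cells also differed between the genotypes with vehicle. Of 9 microglial markers tested 6 were lower in Cgas-/- cells and 1 was higher (median -0.59), with summed levels of 4558 to 4597 CPM against 5490 to 5504 CPM. All 3 fibroblast markers tested (median -3.83), all 4 oligodendrocyte markers (-2.22), the 1 endothelial marker (Flt1, -2.04) and the 1 border macrophage marker (-1.47) were lower. Summed levels were 0.0521 to 0.220 against 2.61 to 4.26 CPM for fibroblasts, where Col3a1 and Lum were at 0 in Cgas-/- cells, 65.2 to 68.9 against 117 to 125 CPM for oligodendrocytes, where Mog was at 0, 20.6 to 24.8 against 86.4 to 97.7 CPM for endothelium, where Cldn5 was at 0, and 27.8 to 30.5 against 75.0 to 84.5 CPM for border macrophages, where Cd163 was at 0. With HT-DNA the endothelial sum was 274 to 277 CPM in Cgas+/+ and 24.3 to 28.2 CPM in Cgas-/- cells. The oligodendrocyte sum was then 195 to 215 CPM in Cgas+/+ and 65.2 to 66.0 CPM in Cgas-/- cells. Flt1 was also the gene most like C3ar1 over the 18 microglial libraries (r = 0.994). Whether these sums reflect cells of those types was not tested. Astrocyte markers summed to 1.14 to 2.51 against 4.67 to 5.89 CPM, and of 5 tested 1 was higher and 2 were lower. Sums of the oligodendrocyte precursor markers overlapped (492 to 544 against 513 to 538 CPM), as did those of neurons, choroid plexus and T cells. Neutrophil sums were higher in Cgas-/- cells (4.33 to 5.02 against 2.57 to 4.21 CPM). Red blood cell sums were lower (0.335 to 0.626 against 1.295 to 2.84 CPM). The part of other cells in the lower complement levels was not tested, and genotype cannot be told apart from the culture preparation, which the labels do not give.

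The lower levels in Cgas-/- cells were also seen within each stimulus. With tau 7 of 8 members were lower, beside 26.2% of all genes, the exception being Cfb (-0.89 ± 0.39, adjusted p = 0.0600, and 0.0290 when the other groups were left out of the fit), and with HT-DNA 8 of 8 were lower, beside 30.1%; none was higher, beside 25.2% and 33.1%. The minimum fold left 4 of 8 with tau, beside 10.4%, and 6 of 8 with HT-DNA, beside 18.1%. C3ar1 was 3.11-fold lower with tau (-1.64 ± 0.04, adjusted p = 3.77e-21) and 4.32-fold lower with HT-DNA (-2.11 ± 0.05, adjusted p = 3.79e-24). C3 was 2.16-fold lower with tau (-1.11 ± 0.08, adjusted p = 4.58e-12) and 3.38-fold lower with HT-DNA (-1.76 ± 0.09, adjusted p = 1.09e-15). C1qa was lower by a similar amount in both, at -0.95 ± 0.04 with tau and -0.88 ± 0.04 with HT-DNA. Over the 9 libraries of each genotype C4b was counted 100 times in Cgas+/+ and 16 times in Cgas-/- cells, its neighbour C4a 79 and 138 times, and Serping1 49 and 7 times with 0 in all 3 Cgas-/- vehicle libraries, for which counting error allows up to 3 reads each. For C4b and Serping1 no fold between the genotypes is given in the text, since most Cgas-/- libraries were at or under 3 reads. The C4b calls between the genotypes rest on 4 Cgas-/- reads with tau and 7 with HT-DNA.

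Ordered by mean level, C3 was highest in Cgas+/+ cells with tau (209 ± 24.4 CPM), then with HT-DNA (102 ± 3.04), in Cgas-/- cells with tau (96.8 ± 6.72), in Cgas+/+ cells with vehicle (57.0 ± 6.87) and in Cgas-/- cells with vehicle (30.6 ± 4.23) or HT-DNA (30.1 ± 3.34; SD, n = 3 each). The ranges of Cgas+/+ cells with HT-DNA and Cgas-/- cells with tau overlapped, as did those of Cgas-/- cells with vehicle and HT-DNA, and the other neighbours did not. C3ar1 ran from 1942 ± 11.9 CPM in Cgas+/+ cells with HT-DNA over tau (1163 ± 43.9) and vehicle (880 ± 66.9) to Cgas-/- cells with HT-DNA (449 ± 5.84), vehicle (401 ± 12.9) and tau (374 ± 6.06). C5ar1 ran from 249 ± 6.93 CPM in Cgas+/+ cells with HT-DNA over vehicle (190.0 ± 12.5) and tau (142 ± 8.5) to Cgas-/- cells with HT-DNA (101 ± 4.35), vehicle (75.5 ± 7.65) and tau (63.4 ± 3.33). For both receptors no neighbouring groups overlapped. The C1q chains fell into 2 levels, the 3 Cgas+/+ and the 3 Cgas-/- groups, and within the 18 libraries the log2 ratios of C1qb and C1qc to C1qa each had an SD of 0.08 while C1qa spanned 2.07-fold.

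Among the 49 other complement genes 20 were tested in microglia. With tau in Cgas+/+ cells 1 was higher, beside 15.8% of all genes, Cr1l (0.15), and 4 were lower, beside 12.2%, the C5a receptor gene C5ar2 (-0.90), the collectin gene Colec12 (-0.52), Cd93 (-0.36) and C1qbp (-0.22). C5ar2 had 16.95 to 18.7 CPM with vehicle and 8.60 to 10.2 CPM with tau (adjusted p = 8.33e-07), so that both C5a receptor genes fell with tau. In Cgas-/- cells tau raised 2, beside 11.2%, C2 (0.50) and Itgb2 (0.15), and lowered 3, beside 5.48%, C5ar2 (-0.73), Colec12 (-0.45) and Cd93 (-0.33), and the interaction with tau was called for 0 of the 20 by edgeR and 0 by DESeq2, with 3 at an unadjusted p under 0.05. With HT-DNA in Cgas+/+ cells 3 were higher, beside 22.8%, the lectin pathway protease gene Masp1 (1.51, 9.36 ± 0.90 to 26.7 ± 2.41 CPM), C2 (0.62) and Cr1l (0.17), and 6 were lower, beside 24.7%, led by C1qbp (-0.47), Cd59a (-0.40) and C5ar2 (-0.31). In Cgas-/- cells HT-DNA gave 0 calls among the 20 by edgeR and 0 by DESeq2, with 1 at an unadjusted p under 0.05. With vehicle, 6 of the 20 were higher in Cgas-/- than in Cgas+/+ cells and 5 were lower, beside 24.7% and 27.3% of all genes. Among those higher were Cd93 (1.61), C4a (1.46), C1qbp (0.35) and Fcna (0.26). Masp1 (-2.09), C5ar2 (-1.44), the convertase component C2 (-0.59), Itgam (-0.53) and Itgax (-0.40) were the lowest.

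Across the 18 microglial libraries, as a description over groups that share genotype and stimulus, C3 was most like Slc31a2 (r = 0.988), Gsap (0.982) and Nrp2 (0.98). C3ar1 was most like Flt1 (0.994), Bcl6 (0.993) and Hk3 (0.992), C1qa like Olfml3 (0.99), Stab1 (0.99) and Madd (0.988), and C5ar1 like Vim (0.982), Pitpnc1 (0.981) and Ncapg2 (0.979). At low counts Cfb was most like Socs1 (0.945), Plxna4os1 (0.945) and Luc7l3 (0.942), and C4b like Dync2h1 (0.933), Fgfbp3 (0.913) and AC160637.1 (0.911).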

How the data were processed

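RNA-seq libraries of 13 hippocampi and 18 primary microglial cultures were analysed from the authors' 2 tables. The authors deposited raw read counts per Ensembl gene, without normalization. The submitters' processing notes name GRCm38, edgeR and limma, and the aligner and counting tool are not given in the sources used here. The labels name a Zymo RNA kit and QuantSeq 3′ libraries for all samples, which count reads near transcript ends, whereas the study's methods name RNeasy for hippocampi. All columns were matched to samples by name, and groups were taken from the labels. The 9 genes, the lists of other complement genes and markers and the tests were chosen with earlier results of these data known.

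Counts were tested with edgeR 4.0.16 in R 4.3.3 (quasi-likelihood test after TMM normalization and filterByExpr) with Benjamini-Hochberg adjustment over all genes tested (16453 in hippocampi, 13675 in microglia). A call is an adjusted p under 0.05 with no minimum fold. Hippocampi were fitted alone and the 18 microglial libraries in 1 fit of 6 groups. Normalized CPM use the library sizes after TMM, and log2 levels used a prior count of 2. Errors of fold changes are standard errors and other errors SD. In edgeR fits the standard error was worked back from the test, as the absolute log2 fold change over the square root of F. Intervals of 95% are the estimate ± 1.96 SE and can be too narrow. For Serping1 in hippocampi the interval left out 0 (0.03 to 1.50) while the quasi-likelihood test gave an unadjusted p of 0.0596. Floors and intervals cover counting error or the spread of the fit only. Apart from ratios followed between libraries, levels of different genes were set side by side only for C4a and C4b and for marker sums, as a description. Members relative to markers were tested with an exact two-sided permutation test over mice. Up to 5 other complement genes per direction were named, by size. The 3 genes most like a member were those with the highest Pearson's r of log2 CPM. One gene that these rules would name is not reported here. Replicates differed by more than counting noise in every pair within a group.

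Alternatives were DESeq2 1.42.0, size factors by RLE, testing without the count filter, sex or homeostatic markers as a covariate, the replicate number as a block, only the compared groups, a minimum log2 fold of 0.5 in hippocampi or 1 in microglia (thresholds of the study) and leaving out each library; leaving out each mouse from the levels relative to markers was added after seeing the data. The tests were first run on simulated counts with known changes. GRCm38 positions came from the GENCODE annotation and promoters from RefSeq (GRCm38.p6).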

Additional observations from a re-analysis of the deposited data

Results flagged for a closer look

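Lone far values were looked for in 16 sets, each 1 member in the Ntg or the P301S hippocampi. In 2 of the 16 a single Ntg mouse lay apart from the rest, where chance alone gives about 1 in 20. The sets share mice and members that move together, so they are not separate chances. C1qc in Ntg mouse 46 was the highest of its group at 53.6 CPM, with the next at 42.9 CPM, and without that mouse the log2 fold change was 1.80 (adjusted p = 0.0574) in place of 1.74. Serping1 in Ntg mouse 55 was the highest of its group at 16.6 CPM. In the microglia, 5 responses differed between the genotypes by the test of the interaction. C3ar1 responded differently to tau (interaction -0.50, a rise of 0.40 in Cgas+/+ and a change of -0.10 in Cgas-/- cells). With HT-DNA the interaction was -0.98 for C3ar1 (1.14 against 0.16), -0.85 for C3 (0.83 against -0.02), -2.69 for Cfb (1.68 against -1.01, the latter on 11 and 6 reads) and -0.16 for C1qb (0.14 against -0.01).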

How the results depend on the processing

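Over 96 gene values, the alternatives left 1014 values with the same direction and side of the threshold, moved 24 past the threshold and 62 below it and turned the sign of 23. Adding sex in hippocampi changed no call. Same-numbered microglial libraries did not deviate together (correlations of -0.085 to 0.0823 over 45 pairs of libraries). The numbers thus gave no sign of pairing, which cannot settle whether such libraries shared a preparation. The replicate block changed the call of 0 of 80 values, and with it C3 rose by 1.87 with tau in Cgas+/+ cells. A minimum log2 fold of 1 left 2 members called with tau and 3 with HT-DNA in Cgas+/+ cells, 0 with HT-DNA in Cgas-/- cells, 3 between the genotypes with vehicle, 4 with tau, and 1 between the stimuli. With HT-DNA in Cgas-/- cells 2 members were called with no filter on low counts and 2 with DESeq2. The interaction of HT-DNA with genotype turned its sign, without a call, for C1qa with only the compared groups (-0.0020) and for C5ar1 with RLE size factors (-0.000626), only the compared groups (-0.025) and DESeq2 (-0.000334). C1qc was called for the interaction with HT-DNA by DESeq2 (-0.20, adjusted p = 0.0140) and RLE size factors (-0.20, 0.0253). By DESeq2, C5ar1 in hippocampi was called (adjusted p = 0.0106).

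Leaving out 1 library gave 1 to 7 members called in hippocampi, 3 to 4 with tau and 6 to 7 with HT-DNA in Cgas+/+ cells, 2 to 4 and 1 to 1 in Cgas-/- cells, 6 to 7 between the genotypes with vehicle, 7 to 7 with tau and 8 to 8 with HT-DNA, 3 to 5 between the stimuli, and 1 to 1 and 2 to 5 for the interactions of tau and HT-DNA. Over all genes these fits called 14 to 751 higher and 0 to 195 lower in hippocampi. In Cgas+/+ cells it was 1879 to 2069 and 1202 to 1563 with tau, and 2876 to 3021 and 2966 to 3177 with HT-DNA. In Cgas-/- cells it was 1286 to 1541 and 539 to 747, and 46 to 98 and 8 to 29. Between genotypes it was 3063 to 4311 and 3288 to 4223, and between stimuli 1764 to 2153 and 2125 to 2460. For the interactions it was 318 to 606 and 267 to 525, and 1864 to 2299 and 2092 to 2540. The range of the log2 fold change crossed 0 for uncalled results: with tau, C1qc in Cgas+/+ (-0.053 to 0.0097) and C1qa (-0.0016 to 0.044) and C4b (-3.89 to 0.042) in Cgas-/- cells; with HT-DNA in Cgas-/- cells, C1qa (-0.0024 to 0.039), C1qb (-0.039 to 0.0056), C3 (-0.11 to 0.090) and C4b (-0.24 to 0.86); and in the interactions C1qa with tau (-0.030 to 0.015) and C5ar1 with HT-DNA (-0.021 to 0.12). Relative to the markers, an alternative chosen after seeing the data, the difference of C3 ran from 1.501 to 2.60 and that of C5ar1 from 0.42 to 0.65. The cause of these shifts was not tested. Cfb, C4b and Serping1 in microglia and C5ar1 and Cfb in hippocampi rested on few counts.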
